A study of Rattus norvegicus with 22 samples.

Results

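Reactive astrocyte genes are genes whose transcripts are known to rise in astrocytes, the star-shaped support cells of the central nervous system, after damage to the tissue. The set held 10 named genes, chosen by name from what is known of reactive astrocytes in rodents and not by a threshold on these arrays. Earlier results of these data were known, however, when the set was chosen. Each gene was measured by 1 of the 23188 transcript clusters of the array. They were the intermediate filament genes Gfap, Vim and Nes, the genes of the secreted proteins Serpina3n and Ptx3, the genes of the membrane proteins S1pr3, Steap4, Emp1 and Cd109, and the enzyme gene Aspg. A transcript cluster is the group of probes that reads 1 gene, and its value is a log2 signal, so a difference of 1 is a doubling.

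The spinal cords came from 22 adult male Long-Evans rats, with 1 array for each animal. Sham rats had surgery of the soft tissue without a laminectomy, the opening of the bone over the cord, and SCI rats had a laminectomy and a contusion at the ninth thoracic level from a rod of 10 g that fell 50 mm, so the SCI comparison contains the laminectomy as well as the contusion. Tamoxifen (TMX), a selective modulator of the estrogen receptor, was injected into the peritoneum at 5 mg/kg, 30 min after surgery, and TMX- rats received the vehicle of ethyl alcohol and corn oil. The groups were Sham/TMX- (n = 5; animals 1a, 3a, 4a, 5a and 6a), Sham/TMX+ (n = 6; 19d to 24d), SCI/TMX- (n = 5; 13c, 15c, 16c, 17c and 18c) and SCI/TMX+ (n = 6; 7b to 12b). A segment of 20 mm around the lesion, or its equivalent in sham rats, was taken at 24 h, so every value is of whole tissue, in which fewer cells of a type and less RNA per cell cannot be told apart.

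Astrocytes answer injury by enlarging, by adding intermediate filaments to their cytoskeleton and, near a lesion, by dividing and forming a border around damaged tissue. Glial fibrillary acidic protein, the product of Gfap, is the filament most used to recognise them. Cytokines of the interleukin-6 family act on astrocytes through the transcription factor STAT3, which binds palindromic sites in promoters, and astrocytes without STAT3 form a weaker border in mice. Most of the 10 genes are also expressed outside astrocytes, Vim in vessels, fibroblasts and macrophages and Nes in progenitors and endothelium.

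Promoters are shown for Gfap, the classical marker, and for Serpina3n and Steap4, whose signals varied together among injured rats. The sequences are from RefSeq (build GRCr8) and hold the 250 bases before the start of each gene, 5′ to 3′ on the strand of the gene. Serpina3n lies on the plus strand at chr6:129088142-129088391, Steap4 on the minus strand at chr4:27054770-27055019 and Gfap on the minus strand at chr10:88361662-88361911. Capitals mark matches to TTCNNNGAA, the palindromic STAT motif, which reads the same on both strands.
Serpina3n: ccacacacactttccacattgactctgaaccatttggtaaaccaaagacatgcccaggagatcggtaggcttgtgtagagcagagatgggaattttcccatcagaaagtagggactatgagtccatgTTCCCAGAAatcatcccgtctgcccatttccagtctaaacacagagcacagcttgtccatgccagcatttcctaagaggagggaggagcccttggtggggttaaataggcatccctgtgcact
Steap4: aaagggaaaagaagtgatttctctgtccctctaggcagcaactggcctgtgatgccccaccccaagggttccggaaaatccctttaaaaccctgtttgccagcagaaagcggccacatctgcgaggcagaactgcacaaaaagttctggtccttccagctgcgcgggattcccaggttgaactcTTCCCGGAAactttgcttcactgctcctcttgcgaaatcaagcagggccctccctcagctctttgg
Gfap: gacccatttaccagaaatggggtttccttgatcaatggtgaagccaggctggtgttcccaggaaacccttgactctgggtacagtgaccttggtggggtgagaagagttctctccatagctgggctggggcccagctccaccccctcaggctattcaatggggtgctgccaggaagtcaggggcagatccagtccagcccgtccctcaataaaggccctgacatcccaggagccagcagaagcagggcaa
The match in Serpina3n began 123 bases before the start and that in Steap4 66 bases before it, and the Gfap window held none. Of the 9 members with a promoter entry, 3 held this motif, the other one being Emp1, against 7.67% of 33469 rat windows of the same length. Vim, Nes, Ptx3 and S1pr3, which were also higher in injured cord, held no match to it, nor did Aspg. TGANTCA, the AP-1 motif, was in 2 members, Emp1 and Aspg, against 6.34% of windows, and in Emp1 one of its matches overlapped a STAT match. A match is a string of letters and not a measured binding site, and the absence of one refers to this window only.

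Array medians lay between 5.41 and 5.47 on the log2 scale. On the first principal component the 11 injured rats (25.8 to 35.6) were apart from the 11 sham rats (-35.1 to -26.9), and on the second animals 13c and 15c stood apart at 23.0 and 41.7, the other 20 lying between -23.7 and 9.96. Results of single members and of correlations that rest on this pair of animals are given with and without it. The comparisons between filament genes were not run without it. Markers of the tissue were high, with mean log2 signals in sham cords of 11.2 for Aqp4 (the astrocyte water channel), 12.0 for Snap25 (neurons) and 12.5 for Mbp (myelin).

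**Figure D1:**
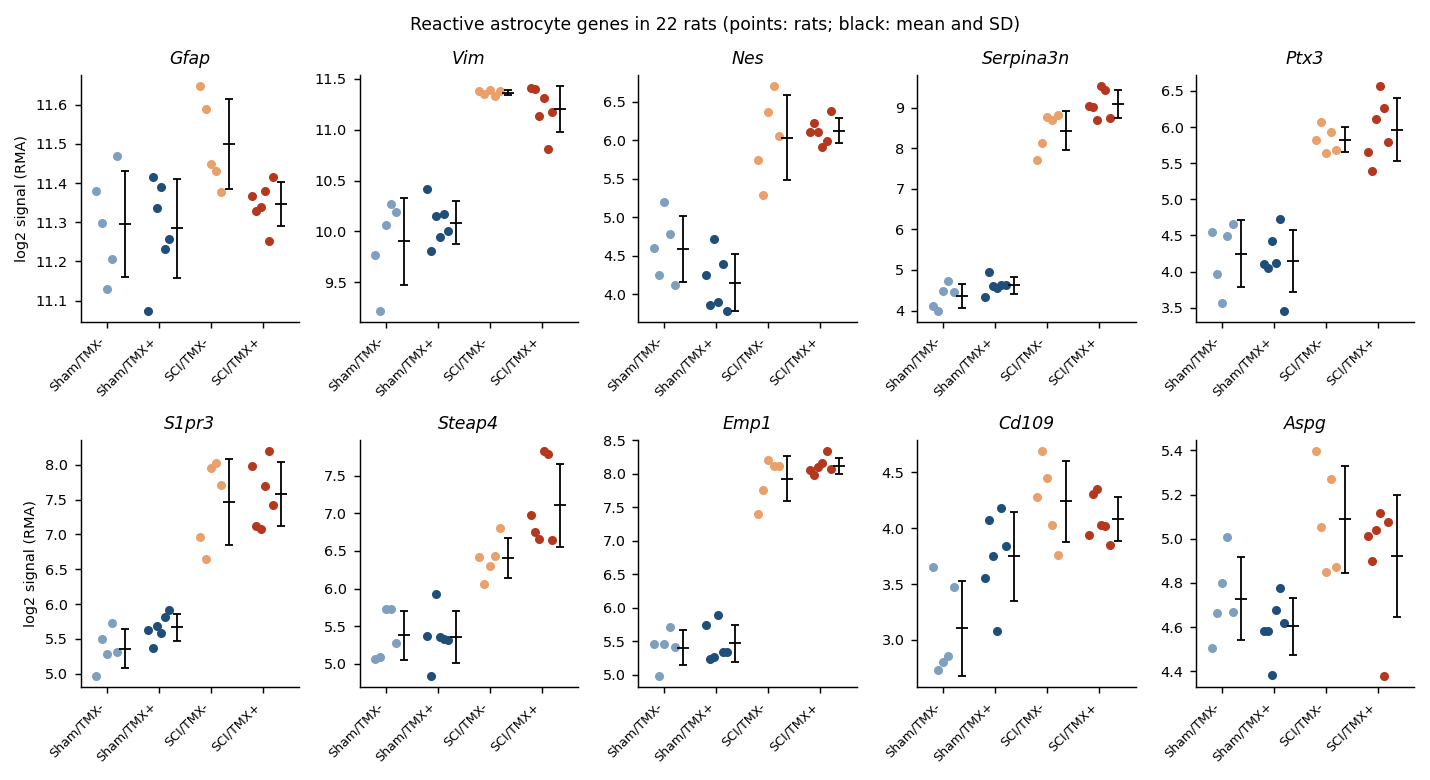
Log2 signal (RMA) of each of the 10 genes on its own vertical axis, with 1 point for each of 22 rats in 4 groups and the mean with SD in black. Serpina3n rose from a range of 4.00 to 4.73 in Sham/TMX- to 7.72 to 8.81 in SCI/TMX-, while the Gfap ranges of these groups overlapped.

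The comparison of SCI/TMX- with Sham/TMX- asked how injury alone changed the genes. At 24 h, 8 of the 10 were higher in injured cord by at least the fold required, Serpina3n by 16.8-fold, Emp1 by 5.74-fold and S1pr3 by 4.29-fold. Gfap did not pass. The call needed a log2 fold change beyond 1 and an adjusted p under 0.05, which 3.05% of all transcript clusters met, 1.98% as higher. Of the 9 genes that the platform annotation names, 7 were called. The eighth call, Cd109, was identified through the study's own table of called transcripts, so it follows from how the gene was found. The other calls are of genes chosen with earlier results of these data known, so their share is a description.

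Among the intermediate filaments, Gfap was already near the top of the scale in sham cord. Its log2 signals in animals 1a, 3a, 4a, 5a and 6a were 11.38, 11.30, 11.13, 11.21 and 11.47, and those of injured animals 13c, 15c, 16c, 17c and 18c were 11.65, 11.59, 11.45, 11.43 and 11.38. The ranges overlapped, with 13c and 15c highest. The log2 fold change was 0.20 (SE 0.085, 95% interval 0.03 to 0.38, adjusted p = 0.0733), and 0.12 (adjusted p = 0.3701) without 13c and 15c. With a mean-variance trend and robust variances together the adjusted p was 0.01445, and with dim transcript clusters left out it was 0.03264, the fold staying below that required. The mean Gfap signal was exceeded by 51 transcript clusters, the highest values of the arrays being 12.47 to 12.77, and whether the scale compresses differences there was not tested.

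Vim encodes vimentin, a filament of glia in development and of many mesenchymal cells, and rose. Its sham signals were 9.77, 9.22, 10.06, 10.27 and 10.19, and the injured signals were 11.38, 11.35, 11.39, 11.33 and 11.38. The groups did not overlap, and the 5 injured rats lay within 0.0583 of each other against 1.05 among the sham rats. The log2 fold change was 1.46 (SE 0.15, adjusted p = 4.892e-08). Vim too was near the top of the scale, with 133 transcript clusters above its mean.

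Nes encodes nestin, a filament of neural progenitors that reactive astrocytes take up again. The sham signals were 4.61, 4.25, 5.19, 4.78 and 4.11 and the injured signals 5.74, 5.29, 6.37, 6.71 and 6.06. All injured rats exceeded all sham rats, animal 15c only narrowly. Nes rose by 1.44 (SE 0.22, adjusted p = 1.126e-05), or by 1.79 without 13c and 15c.

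Since these 3 genes belong to one filament system, their changes were compared within each array. The Vim change exceeded the Gfap change by 1.26 on the log2 scale (exact permutation test, two-sided, p = 0.007937, the smallest that 5 against 5 allows, and 0.02381 adjusted over 3 pairs). For Nes over Gfap the difference was 1.24 (exact p = 0.01587, adjusted 0.02381, or 0.05952 after a further quantile normalization). Nes and Vim differed by -0.02 (exact p = 0.9683). In the TMX+ groups the same differences were 1.06, 1.91 and 0.85, each at exact p = 0.002165, the smallest that 6 against 6 allows. The log2 signals of Gfap and of the other filament genes thus differed by unequal amounts between injured and sham cords. Gfap and Vim were read near the top of the scale and Nes far below it, and whether the scale has a part in this was not tested. Whether the Nes and Vim difference itself depended on TMX was not tested. These are differences between changes and not between levels of different probes.

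Of the secreted proteins, Serpina3n is a serine protease inhibitor of the antichymotrypsin family, released by astrocytes and in the acute phase response. Its sham signals were 4.12, 4.00, 4.49, 4.73 and 4.46, and its injured signals 7.72, 8.13, 8.76, 8.70 and 8.81. The gap between the groups was larger than the range within either, and 13c and 15c were the lowest injured rats. The log2 fold change was 4.07 (SE 0.19, adjusted p = 6.093e-14), or 4.40 without this pair. The rat Serpina3 genes are a family of near copies, so a part of the signal may come from relatives. The measured relatives Serpina3c and Serpina3m had log2 fold changes of 0.44 (adjusted p = 0.02897) and -0.06 (adjusted p = 0.8081).

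Ptx3 encodes a long pentraxin that binds microbes and complement and is made by several stromal and myeloid cells in inflammation. Its signals ranged from 3.57 to 4.65 in Sham/TMX- and from 5.64 to 6.07 in SCI/TMX-, without overlap, and it rose by 1.58 (SE 0.22, adjusted p = 3.795e-06).

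Among the membrane proteins, Emp1, a small protein with 4 membrane spans related to the peripheral myelin protein, followed Serpina3n in size of change. Sham signals of Emp1 were 5.46, 4.98, 5.46, 5.72 and 5.41, and injured signals 7.41, 7.76, 8.21, 8.12 and 8.12. The groups were separate, with 13c and 15c again lowest among the injured. Emp1 rose by 2.52 (SE 0.15, adjusted p = 3.643e-12), or by 2.75 without them.

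S1pr3 encodes a G protein-coupled receptor for sphingosine-1-phosphate, found on glia and vascular cells. It read 4.97, 5.50, 5.29, 5.73 and 5.31 in the sham rats and 6.97, 6.65, 7.95, 8.02 and 7.71 in the injured rats. The groups did not overlap, and within the injured group 13c and 15c were the lowest. S1pr3 rose by 2.10 (SE 0.23, adjusted p = 1.126e-07), and by 2.53 without 13c and 15c.

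Steap4, a metalloreductase that reduces iron and copper and is induced by inflammatory cytokines, had the smallest change among the genes called. Sham signals were 5.07, 5.09, 5.72, 5.72 and 5.28, and injured signals 6.43, 6.06, 6.30, 6.44 and 6.80. The groups were apart, and the rise of 1.03 (SE 0.22, adjusted p = 0.000733) was just over the fold required. It was 0.93 to 0.96, and so not called, when sham animal 1a, sham animal 3a or injured animal 18c was left out.

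Cd109, a membrane-anchored relative of alpha-2-macroglobulin that binds transforming growth factor beta, was dim: 26.7% of transcript clusters had a lower mean. Its signals were 3.65, 2.73, 2.80, 2.86 and 3.48 in Sham/TMX- and 4.28, 4.69, 4.45, 4.02 and 3.76 in SCI/TMX-. The groups came close but did not overlap. The log2 fold change was 1.14 (SE 0.20, adjusted p = 6.841e-05), and 0.97 without 13c and 15c, under the fold required. Aspg, an asparaginase, ranged from 4.50 to 5.01 in sham and from 4.85 to 5.40 in injured cord, with overlap, and its log2 fold change of 0.36 (SE 0.13, adjusted p = 0.03815) missed the fold required. Without 13c and 15c it was 0.27 (adjusted p = 0.2036).

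Over all 10 genes the median log2 fold change was 1.45, against -0.01 over all transcript clusters. Of the 9 genes named by the platform, whose median was 1.46, every injured rat exceeded every sham rat in 7, which held for 8.96% of all transcript clusters. Cd109 was separate too, but was found through its call in this comparison. As with the calls, the share is a description, since earlier results were known when the genes were chosen.

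**Figure D2:**
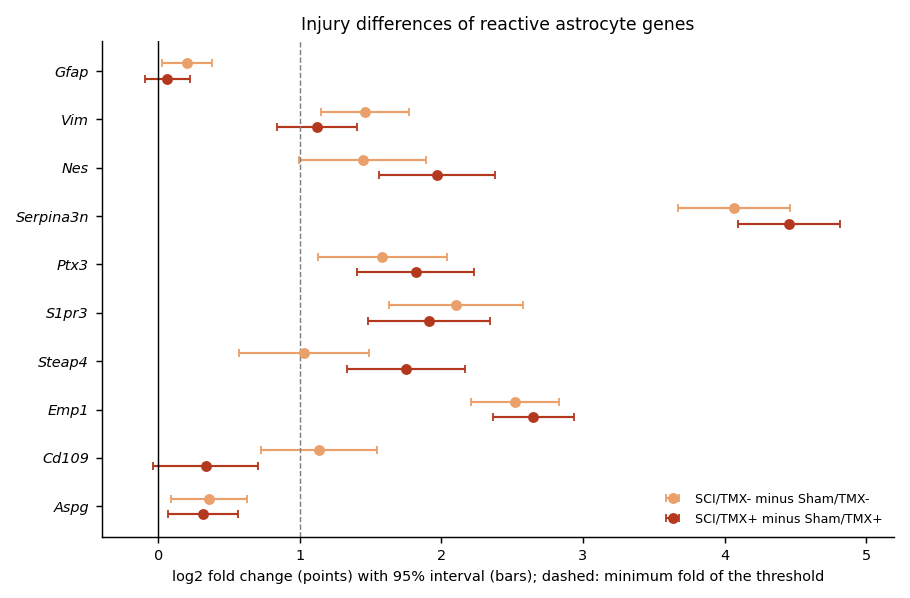
Injury differences of the 10 genes (horizontal axis, log2 fold change with 95% interval), in TMX- rats (light) and TMX+ rats (dark), with the fold required as a dashed line. Serpina3n is farthest to the right at 4.07 and 4.46, and Gfap lies near 0 in both.

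In the TMX+ groups, which are other animals, SCI/TMX+ against Sham/TMX+ gave 7 of 10 genes called, all higher, against 3.04% of all transcript clusters called and 1.93% as higher. The log2 fold changes were 4.46 for Serpina3n (22.0-fold), 2.65 for Emp1, 1.97 for Nes, 1.91 for S1pr3, 1.82 for Ptx3, 1.75 for Steap4 and 1.12 for Vim. Each of these 7 was higher in all 6 injured than in all 6 sham rats, as were 9.16% of all transcript clusters. Gfap had the lowest, median and highest signals of 11.07, 11.30 and 11.42 in Sham/TMX+ and 11.25, 11.35 and 11.41 in SCI/TMX+. The injured range lay within the sham range, with a log2 fold change of 0.06 (95% interval -0.10 to 0.22, adjusted p = 0.5954).

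Serpina3n went from 4.33, 4.62 and 4.96 (lowest, median and highest) in Sham/TMX+ to 8.69, 9.03 and 9.54 in SCI/TMX+, and Emp1 from 5.23, 5.34 and 5.90 to 7.98, 8.08 and 8.34. Neither gene had an injured rat anywhere near the sham range. Nes went from 3.79, 4.07 and 4.72 to 5.92, 6.11 and 6.38, and the injured rats were tight, with an SD of 0.16 against 0.55 in SCI/TMX-. Vim, by contrast, was spread more in SCI/TMX+ (10.81, 11.24 and 11.41, SD 0.22) than in SCI/TMX- (SD 0.025), animal 11b being the lowest. These SDs were not compared by a test.

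S1pr3 in the same groups read 5.36, 5.66 and 5.91 in sham and 7.07, 7.55 and 8.20 in injured rats, Ptx3 read 3.46, 4.11 and 4.73 against 5.39, 5.95 and 6.57, and Steap4 4.84, 5.34 and 5.93 against 6.64, 6.86 and 7.82. Each pair of ranges was separate, Ptx3 and Steap4 by less than 1 log2 unit. Cd109 overlapped, with 3.08, 3.79 and 4.18 in Sham/TMX+ and 3.85, 4.02 and 4.34 in SCI/TMX+, the median of Sham/TMX- being 2.86. Aspg overlapped through animal 11b alone, the lowest of the SCI/TMX+ rats at 4.38, the other 5 lying above the Sham/TMX+ maximum of 4.78. Cd109 had a log2 fold change of 0.33 (adjusted p = 0.1695) and Aspg of 0.32 (adjusted p = 0.04155), and neither was called.

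Other cell populations moved in the same cords. All 8 measured markers of monocytes and macrophages rose, their mean level per rat going from 5.55 to 5.90 in Sham/TMX- to 7.18 to 8.02 in SCI/TMX-. Of 8 neutrophil markers 6 rose (3.77 to 4.26 against 4.73 to 5.23), and all 4 measured red blood cell genes rose. Endothelial markers were mixed, with 3 of 9 higher and 1 lower, as were markers of pericytes and smooth muscle, with 2 of 8 higher and 2 lower. All these counts, and those of the lists that follow, are at an adjusted p under 0.05. Of all transcript clusters, 12.8% passed it as higher and 17.8% as lower. Myeloid and vascular cells express Vim, Ptx3, Emp1 and S1pr3 too, and the part of these populations in the changes of the 10 genes was not tested.

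Genes of resting astrocyte function were mostly lower. Of 14 measured homeostatic astrocyte genes 10 fell and 1 rose, with a median of -0.58, and their mean level per rat went from 9.82 to 9.94 in Sham/TMX- to 9.25 to 9.44 in SCI/TMX-, without overlap. Slc4a4, a bicarbonate cotransporter, fell by 1.09, the potassium channel gene Kcnj10 by 0.73, and Gja1 and Slc6a11, for a gap junction protein and a transporter of GABA, by 0.81 and 1.00. Glul, which encodes glutamine synthetase, was the gene that rose, by 0.34. Slc1a2 and Fgfr3 had values of -0.13 and -0.01 and did not pass. Markers of some other resident cells were lower as well, 7 of 9 in neurons (median -0.52), 4 of 6 in microglia (-0.52), 4 of 7 in oligodendrocytes (-0.42) and 3 of 6 in their precursors (-0.18). This did not hold for all: 0 of 6 ependymal markers (median -0.03) and 0 of 5 Schwann cell markers (-0.32) passed in either direction. Of 7 markers of fibroblasts and meninges 2 were higher and 2 lower (0.15). Aif1 in microglia and Cldn11 in oligodendrocytes were higher, by 0.92 and 0.30.

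Genes known from mouse reactive astrocytes were counted in 3 lists. All 7 genes induced across kinds of injury rose, with a median of 2.11, led by Timp1 (4.04), an inhibitor of matrix metalloproteinases, Hspb1 (2.34), a small heat shock protein, Cd44 (2.11), a hyaluronan receptor, and Lcn2 (3.61), the iron-binding lipocalin. Of 9 genes typical of ischaemia 7 rose, among them S100a10 (1.66), Cd14 (3.09), Stat3 (1.31) and Ptgs2 (2.41), of which Cd14 is also a monocyte marker. Of 9 genes typical of the neurotoxic state after endotoxin 4 rose, Gbp2 (2.19) and Fkbp5 (1.19) with the largest test statistics, and complement C3 fell by 0.78, its value in the TMX+ groups being -0.03 (adjusted p = 0.9279). The genes of the microglial signals known to induce that state in mice divided, 3 of 5 being higher. C1qb rose by 1.29, C1qc by 1.15 and C1qa by 0.41, whereas Tnf (0.22, adjusted p = 0.3092) and Il1a (0.23, adjusted p = 0.2239) did not pass.

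In the STAT3 pathway 9 of 16 measured genes rose and 2 fell. Socs3, the feedback inhibitor, rose by 3.42, the cytokine gene Il11 by 2.52, Stat3 by 1.31 and Osmr, the oncostatin M receptor, by 2.11. The receptor genes Lifr and Cntfr fell by 0.47 and 0.84. The other filament and linker genes were divided, 4 of 12 higher and 4 lower: Lmna (0.87), Des (1.02) and Plec (0.61) rose, and the neurofilament gene Nefl fell by 0.71.

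Of 8 other genes measured in the sphingosine-1-phosphate axis, 4 fell and 1 rose. Sgpp2, a phosphatase of the lipid, fell by 1.37, S1pr1 by 0.88 and S1pr5, a receptor of oligodendrocytes, by 1.09, while the kinase gene Sphk1 rose by 0.56. Among 16 relatives of the members in their gene families, 5 rose and 2 fell, with Emp3 (1.95), A2m (1.28) and Steap1 (1.03) higher and Asrgl1 lower (-0.52). At the same adjusted p, 12.8% of all transcript clusters were higher and 17.8% lower.

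**Figure D3:**
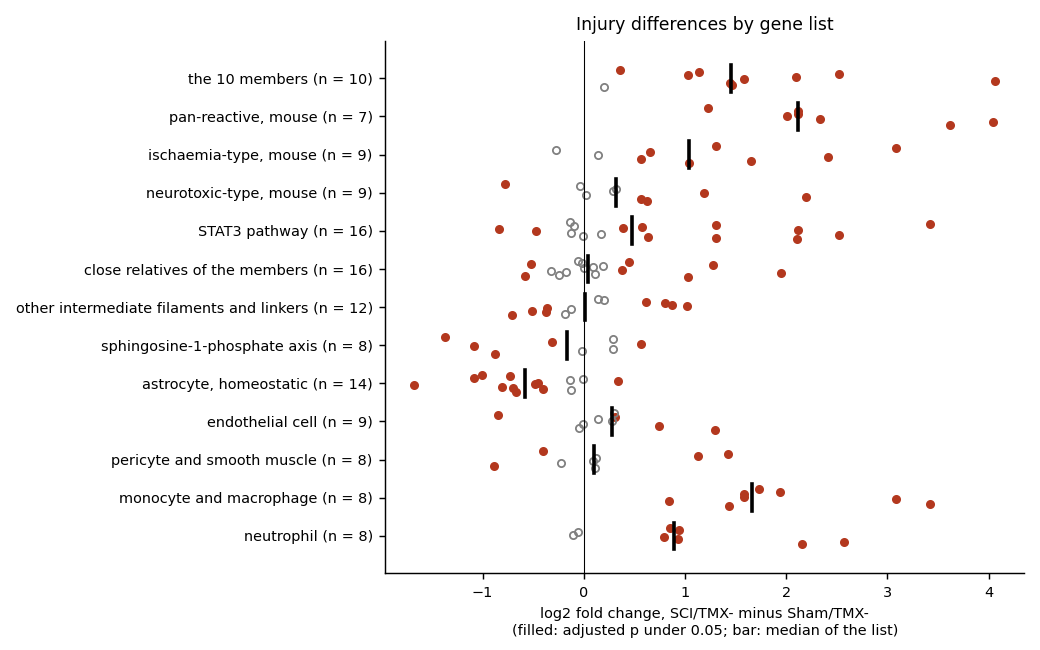
Log2 fold change of SCI/TMX- minus Sham/TMX- (horizontal axis) for each gene of the 10 members and of 12 lists, filled where the adjusted p was under 0.05, with the median of each list as a bar. The members, which no list holds, have a median of 1.45, and the homeostatic astrocyte genes one of -0.58.

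TMX in sham rats was the next comparison. A TMX call needed a log2 fold change beyond 0.7 and an unadjusted p under 0.05. None of the 10 genes was called, as against 0.0302% of all transcript clusters. At an unadjusted p under 0.05 alone, without the fold, there were 2 genes, against 5.46% of all transcript clusters. Cd109 had a log2 fold change of 0.64 (95% interval 0.25 to 1.03, adjusted p = 0.664), with 4 of 6 Sham/TMX+ rats above all 5 Sham/TMX- rats, and Nes one of -0.44 (-0.87 to -0.01, adjusted p = 0.905). Cd109 met both criteria in 3 of 22 fits that left out 1 array, its log2 fold change ranging from 0.55 to 0.78. Since Cd109 was found through its call against these same Sham/TMX- rats, which favours low values in them, its TMX difference in sham rats and its interaction are descriptions only, and of the 9 genes named by the platform 1 passed the unadjusted p. The widest intervals of the other 8 genes reached 0.76 on the log2 scale for S1pr3 and -0.53 for Ptx3.

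In injured rats, where the question was whether TMX changed the response to injury, none of the 10 genes was called either, against 0.129% of all transcript clusters. Serpina3n and Steap4 came closest, both with higher signals after TMX. At an unadjusted p under 0.05 alone they were 2 of 10, against 10.4% of all transcript clusters. Serpina3n in SCI/TMX+ had a lowest, median and highest signal of 8.69, 9.03 and 9.54, and 4 of the 6 rats exceeded all 5 SCI/TMX- rats, although the groups overlapped. The log2 fold change was 0.65 (SE 0.18, 95% interval 0.27 to 1.03, adjusted p = 0.1998). Without 13c and 15c, the lowest vehicle-treated rats, it was 0.32 (adjusted p = 0.5675).

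Steap4 in SCI/TMX+ read 6.64 at the lowest, 6.86 at the median and 7.82 at the highest. Animals 10b and 11b were far above the other 4, and 3 of 6 rats exceeded all SCI/TMX- rats. Its log2 fold change of 0.70 (SE 0.21, 95% interval 0.26 to 1.13, adjusted p = 0.2273) was 0.6975 before rounding, just under the fold required. It was 0.59 (adjusted p = 0.4619) without 13c and 15c. Leaving out single arrays carried Steap4 past both criteria in 7 of 22 fits (0.55 to 0.80) and Serpina3n in 5 of 22 (0.48 to 0.75).

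The other 8 genes had log2 fold changes from -0.17 (Aspg) to 0.19 (Emp1) with TMX in injured rats. The Aspg value was -0.06 without animal 11b, and the Emp1 value 0.07 without 13c. For Gfap the value was -0.15 (95% interval -0.32 to 0.01), for Vim -0.16 (-0.46 to 0.14) and for Nes 0.09 (-0.34 to 0.52). The intervals were wider for S1pr3 (-0.33 to 0.57), Ptx3 (-0.30 to 0.57) and Cd109 (-0.55 to 0.23). The Cd109 value is a description only, since finding the gene through its call favours high values in these same SCI/TMX- rats. The direction was not settled for Nes, S1pr3, Emp1 and Cd109, whose values without 13c and 15c were -0.26, -0.31, -0.03 and 0.00. In the lists, Lif, a ligand of the STAT3 pathway, had a log2 fold change of 0.77 (adjusted p = 0.1087) and Lcn2 one of 0.78 (adjusted p = 0.2892), both past the thresholds for TMX, as was the monocyte receptor gene Ccr2 at -0.85 (adjusted p = 0.2463). In sham rats Lcn2 was past the same thresholds in the other direction, at -1.003 (adjusted p = 0.6052).

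**Figure D4:**
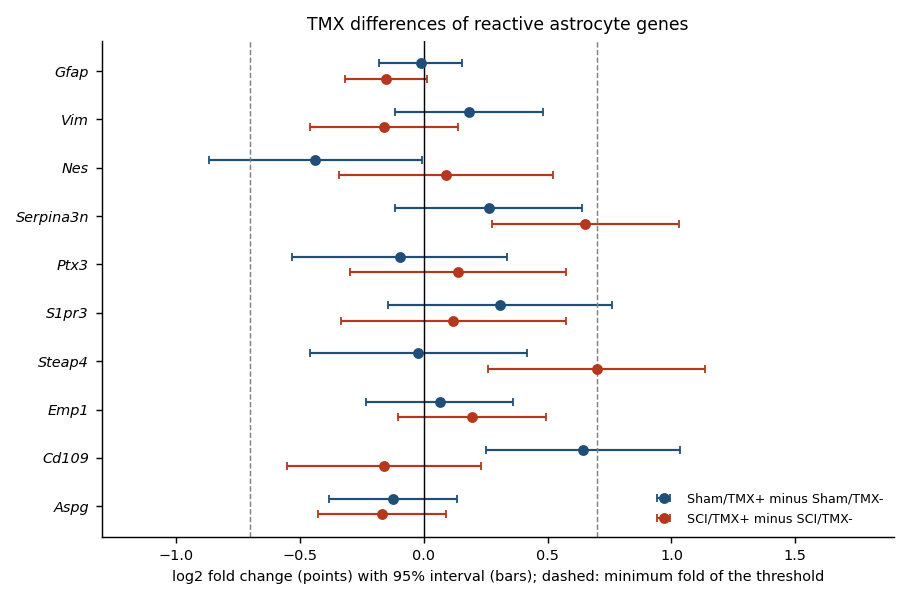
TMX differences of the 10 genes (horizontal axis, log2 fold change with 95% interval) in sham rats (blue) and injured rats (red), with the folds required as dashed lines. The largest values are Steap4 at 0.70 and Serpina3n at 0.65 in injured rats and Cd109 at 0.64 in sham rats.

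Whether the TMX difference itself depended on injury was tested by the interaction. None of the 10 genes, and 0% of all 23188 transcript clusters, passed an adjusted p of 0.05 in limma, while 6.84% had an unadjusted p under 0.05. The interaction for Cd109 was -0.80 (95% interval -1.36 to -0.25, adjusted p = 0.5588) and for Steap4 0.72 (0.10 to 1.34, adjusted p = 0.6741). So the call of Cd109 in TMX- rats and its miss in TMX+ rats are not shown to differ. Without 13c and 15c, S1pr3 had an interaction of -0.62 (adjusted p = 0.5199) in place of -0.19.

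Variation among the injured rats was described by correlations of the 45 pairs of members over 11 animals. After adjustment over the pairs, 5 passed by Pearson's r and none by Spearman's rho (11 and 6 before adjustment, permutation tests, two-sided), and in the 11 sham rats none passed by either (2 and 1 before adjustment). Gfap and Serpina3n ran against each other, r = -0.88 (adjusted permutation p = 0.0288) and rho = -0.65 (adjusted permutation p = 0.3048). Animals 13c and 15c held the highest Gfap and the lowest Serpina3n, and without them r was -0.57 (permutation p = 0.1139), so its passing rests on this pair. The same was seen for Gfap with Emp1 (r = -0.85 and rho = -0.33, adjusted permutation p = 0.03375 and 0.6931, with r = -0.29 without the pair) and for Serpina3n with Emp1 (r = 0.86 and rho = 0.56, adjusted permutation p = 0.0288 and 0.3799, with r = 0.43). Within the 6 SCI/TMX+ rats, which hold neither animal, r was -0.39 for Gfap with Serpina3n, -0.63 for Gfap with Emp1 and 0.61 for Serpina3n with Emp1.

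Serpina3n and Steap4 varied together, r = 0.82 and rho = 0.85 (adjusted permutation p = 0.03537 and 0.07425). Without 13c and 15c their r was 0.95 (adjusted permutation p = 0.04635), the only pair of the 45 that then passed, and within the 6 SCI/TMX+ rats it was 0.96. Animals 10b and 11b were the highest in both genes and are part of each of these values. The r without 10b and 11b was not computed, so how far the relation rests on them was not tested. Centred within each treatment group, the r was 0.68 (adjusted permutation p = 0.1289), and the pairs that passed were Gfap with Emp1 and Serpina3n with Emp1. S1pr3 and Emp1 had r = 0.74 and rho = 0.75 (adjusted permutation p = 0.03537 and 0.1129), and r = 0.69 without the pair of animals (adjusted permutation p = 0.302).

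**Figure D5:**
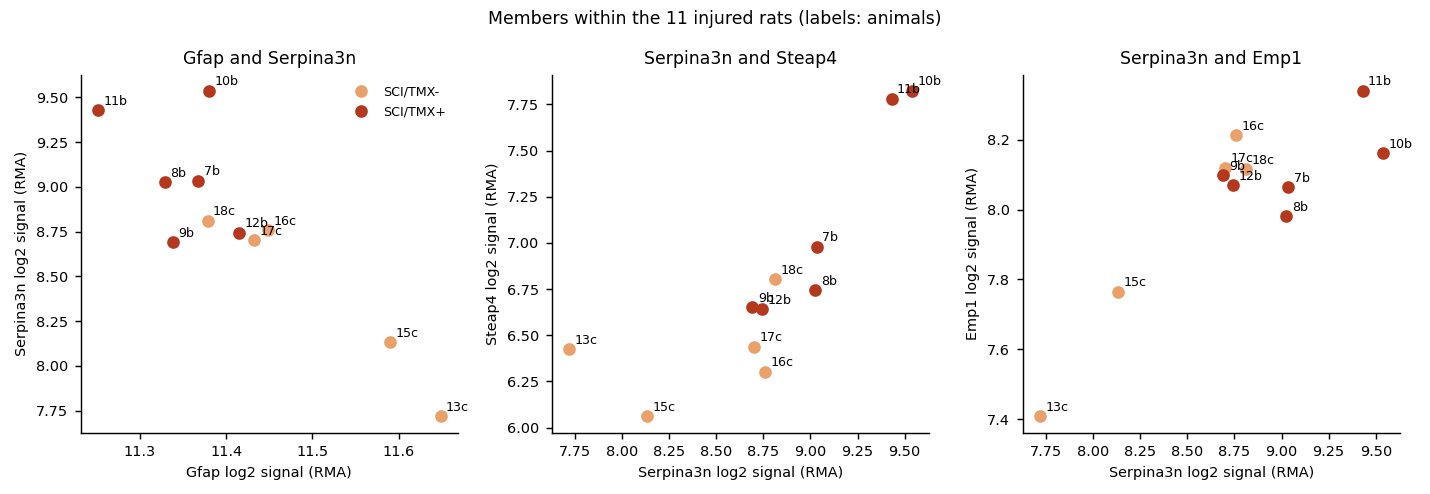
Log2 signals of 3 pairs of genes in the 11 injured rats, 1 labelled point for each rat, SCI/TMX- light and SCI/TMX+ dark. Animals 13c and 15c lie apart in the left and right panels, and animals 10b and 11b lead both Serpina3n and Steap4 in the middle panel.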

How the data were processed

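Spinal cord RNA of 22 rats was hybridised to Clariom S rat arrays, 1 rat for each array. The authors deposited log2 values from oligo 1.56 (robust multichip analysis, RMA, with background correction, quantile normalization and a summary over probes), and these log2 values were used without further normalization. RMA can compress differences of very dim and very bright probes, which was not tested here. Array signals carry no read depth, and the number of arrays limits the precision. RNA with an integrity number of at least 7 was used, and each cord had been divided sagittally before storage.

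The platform annotation gave 1 symbol to 15049 of 23188 transcript clusters and none to 8139. It named 9 members, and Cd109 was named by its probe identifier in the study's supplementary table, of which only identifiers were used. Each member had 1 transcript cluster. Groups were taken from the labels. The animals were separate, and pairs of different treatment groups with the same replicate number did not deviate together (5 of 31 correlations over 0.1, range -0.207 to 0.226), so the numbers do not pair them.

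limma 3.58.1 in R 4.3.3 (the study used limma 3.48.3) fitted the 4 group means with 18 residual and 6.99 prior degrees of freedom and gave two-sided tests, with Benjamini-Hochberg adjustment over all transcript clusters. Thresholds were those of the study's methods, and the interaction used an adjusted p under 0.05. Counts over lists used an adjusted p under 0.05 without a fold. Of 189 genes in 21 lists 174 were measured. Changes of filament genes were compared by exact permutation of arrays, and correlations by 100000 permutations, in Python 3 with NumPy and SciPy. The fit was tested on simulated data. Named were the 10 members, of each list up to 4 genes with the largest and up to 2 with the smallest moderated t under injury, and the 5 genes most like Gfap. Lif, Lifr, Cntfr, Serpina3c, Serpina3m, Glul, Aqp4, Snap25 and Cldn11 lie outside that rule and were named after their values were seen. The members, lists and tests were chosen with earlier results of these data known. Alternatives changed the variance model, filter, normalization, array weights, replicate block, arrays included, features and thresholds.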

Additional observations from a re-analysis of the deposited data

Results flagged for a closer look

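Aspg in SCI/TMX+ had 1 rat far from the others. Animal 11b read 4.38 on the log2 scale, and the other 5 rats lay between 4.90 and 5.12, a gap of 0.701 of the whole range. It was the only case among the 40 groups of 5 or 6 rats examined (10 genes in 4 groups, 2.5%), where chance flags about 5%.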

How the results depend on the processing

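With dim transcript clusters left out, 6 of the 10 genes were tested for injury and 5 were called. The share over the clusters kept is not given, so this count is a description. Without a minimum fold, 2 genes passed for TMX in sham and 2 in injured rats, against 5.46% and 10.4% of all transcript clusters. For injury 9 genes then passed as higher without TMX and 8 with TMX, Aspg being among them in both. Of all 23188 transcript clusters 2958 and 3318 passed as higher. With the replicate number as a block, 1 gene passed for TMX in injured rats, Steap4 at 0.75, with 35 transcript clusters called in place of 30. Steap4 in sham rats was then 0.0278. This number is only the order of animals within a group, so the block stands for no known pairing. With array weights the TMX value in injured rats was -0.0796 for Nes and -0.168 for S1pr3, and the interaction of Aspg was 0.0493. Without 13c and 15c the co-variation had 1 pair past the threshold and centred within treatment 2, in place of 5. Leaving out 13c and 15c gave 7 genes called for injury, a description without the share over all transcript clusters. The TMX values in injured rats were then -0.255 for Nes, -0.315 for S1pr3, -0.0308 for Emp1 and 0.0024 for Cd109. The interactions were -0.0949 for Emp1 and 0.0495 for Aspg. Nes minus Gfap was 1.209 (adjusted exact p = 0.05952) after a further quantile normalization, and Nes minus Vim was 0.85 in TMX+ rats. The causes were not tested.

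Leaving out 1 array at a time, the genes called numbered 7 to 8 and 7 to 7 for injury without and with TMX, 0 to 1 for TMX in sham rats, 0 to 2 in injured rats and 0 to 0 for the interaction. Over all transcript clusters the injury calls numbered 680 to 762 without TMX, in place of 708, and 685 to 748 with TMX, in place of 706. The TMX calls numbered 6 to 16 in sham rats, in place of 7, and 16 to 63 in injured rats, in place of 30. The ranges that crossed 0 were, for TMX in sham rats, Gfap -0.0541 to 0.0311, Emp1 -0.042 to 0.142, Steap4 -0.138 to 0.0805 and Ptx3 -0.266 to 0.0402, for TMX in injured rats, S1pr3 -0.0829 to 0.261 and Nes -0.0969 to 0.259, and the Aspg interaction, -0.112 to 0.0663. Nes minus Vim ranged from -0.21 to 0.17, Vim minus Gfap from 1.09 to 1.37 and Nes minus Gfap from 1.06 to 1.45. The choice between several transcript clusters was not run, since each gene had 1. The fit with array medians subtracted, with a variance trend and robust variances, on the compared groups only or on 1 transcript cluster per gene gave the same counts of genes called.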

Other observations

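By the deviation of each array from its group mean, over 22 arrays, the named transcript clusters most like Gfap were Ddi1 (r = 0.77), Nup85 (0.77), Or1f28 (0.76), Or5p6b (0.75) and Khdrbs1 (0.73). These are a protease-like protein, a nuclear pore protein, a pair of olfactory receptors and an RNA-binding protein, and the values are a description of arrays that share their normalization.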
